A study of Homo sapiens with 2 samples.

Results

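Transfer RNA (tRNA) genes were described in 2 lists of chromatin immunoprecipitation peaks from NB4 cells. The members are the genes of type tRNA in the RefSeq gene table of GRCh38.p14 that lie on the assembled chromosomes, 429 of 58961 genes of all types there. A gene counted as overlapped when a peak covered at least 1 bp of it, and the rule itself uses no measured value, though it was proposed with earlier results of these data known. They were 70 to 108 bp long with a median of 73 bp, and they lay on 22 chromosomes.

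NB4 cells, an established human line from acute promyelocytic leukemia with a PML-RARA fusion, were given no genetic change or drug in the labels. There were 2 libraries, 1 from each of 2 antibodies labelled as raised against GFI1, a zinc-finger repressor of blood cell genes, and they are named ab21061 and sc8558. The immunoprecipitation protocol in the labels names PML/RARα instead, and 1 sample title reads GFI2, so the target rests on the antibody labels. Both libraries came from this 1 line, the labels do not say whether from separate cultures, neither antibody had a replicate, no control library was analysed here and the sequencing depth is unknown. The lists held 7687 and 7562 peaks.

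tRNA genes are transcribed by RNA polymerase III (Pol III), not by the polymerase that makes messenger RNA. In most of them the promoter lies inside the gene, in an A box and a B box that the factor TFIIIC binds before TFIIIB and the polymerase are recruited. A tRNA symbol gives the amino acid in 1 letter, the anticodon, a number for the mature sequence and a number for the copy, so TRP-TGG3-2 and TRP-TGG3-5 are copies of 1 proline tRNA sequence at different places. X stands for the initiator methionine tRNA and U for selenocysteine.

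The sequence table used here, from RefSeq on GRCh38.p14, holds windows from 250 bases before to 50 bases after the starts of other genes, and 14 tRNA genes lay wholly inside such a window. The first pair is shown because the same gene sequence stood at a marked and an unmarked place, the third because both antibodies marked it, and the fourth as an unmarked gene near a peak. Each is given 5′ to 3′ on the strand on which a B box was found, with 20 flanking bases on either side. Capitals mark the A box and the B box (GGTTCGA, any base, then TCC, with at most 1 mismatch).
TRP-TGG3-2, chr14:20684016-20684087, plus strand: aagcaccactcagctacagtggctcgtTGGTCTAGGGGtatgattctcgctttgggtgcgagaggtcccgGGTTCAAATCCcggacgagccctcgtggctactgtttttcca
TRP-TGG3-5, chr16:3188094-3188165, plus strand: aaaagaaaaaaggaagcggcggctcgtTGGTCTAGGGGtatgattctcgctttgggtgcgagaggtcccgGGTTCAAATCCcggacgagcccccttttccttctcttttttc
TRF-GAA1-5, chr13:94549650-94549722, minus strand: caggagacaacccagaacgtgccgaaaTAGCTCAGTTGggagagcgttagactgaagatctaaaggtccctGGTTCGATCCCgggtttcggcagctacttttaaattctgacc
TRL-AAG2-2, chr6:28943622-28943703, minus strand: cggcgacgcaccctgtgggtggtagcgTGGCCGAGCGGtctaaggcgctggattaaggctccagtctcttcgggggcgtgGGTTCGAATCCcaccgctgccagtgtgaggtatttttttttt

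The pair of proline genes was identical over all 72 bases, whereas 6 of the 20 bases before the gene and 7 of the 20 after it matched. TRP-TGG3-2, 90 bp from the nearer end of ANG, lay under a peak of both antibodies. TRP-TGG3-5 had its nearest peaks 69656 bp (ab21061) and 85989 bp (sc8558) away. The same gene sequence was found both under a peak and far from any, in a pair shown for that difference. The midpoint of TRP-TGG3-2 lay 1156.5 bp (ab21061) and 1282 bp (sc8558) from the midpoints of its peaks, which were 3089 and 3132 bp wide. How reads that fit both copies were placed is not given in the sources used here. TRF-GAA1-5 lay under peaks of both antibodies with scores of 212.61 and 161.57. TRL-AAG2-2 lay 735 bp from an sc8558 peak and 1747 bp from an ab21061 peak.

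Peaks covered 36 tRNA genes with ab21061 (8.39%, exact 95% interval 5.95 to 11.4) and 27 with sc8558 (6.29%, 4.19 to 9.03). Both antibodies marked 18 genes (4.2%, 2.51 to 6.55) and at least 1 of them marked 45 (10.5%, 7.75 to 13.8). Over all genes of the table the shares were 6.35% with ab21061, 6.38% with sc8558 and 4.76% with both, and those genes have a median length of 5556 bp. Over protein-coding genes, which are longer still, they were 12.6%, 12.6% and 9.64%. A longer gene offers more room for a peak, so a background of like length was taken, the 4721 other genes of at most 108 bp. Of these, 0.318% were overlapped with ab21061, 0.339% with sc8558 and 0.169% with both. The tRNA shares were 26.4-fold and 18.6-fold higher, and with each antibody the interval of the tRNA genes did not overlap that of the other short genes. Intervals cover counting error only, and they treat genes as separate although neighbours shared peaks. No p-value was computed, since each antibody had 1 library.

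**Figure D1:**
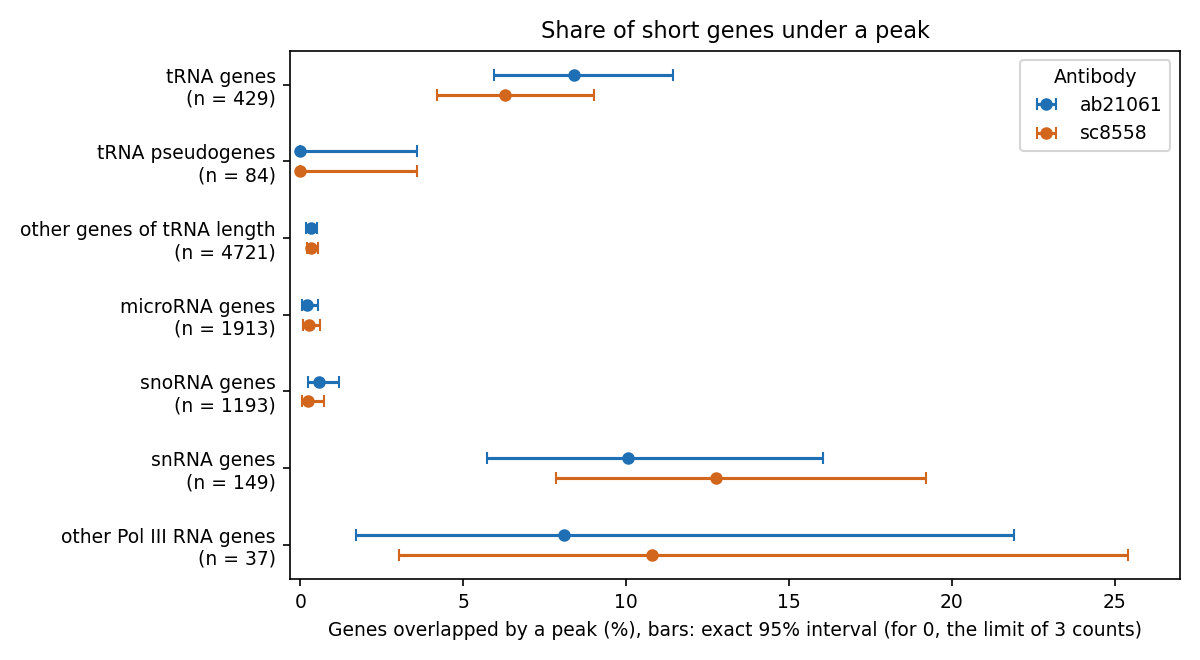
Share of genes overlapped by a peak of at least 1 bp (x axis, percent) for 7 classes of short genes, with 1 point per antibody and exact 95% intervals. The tRNA genes (8.39% and 6.29%) lie above other genes of the same length (0.318% and 0.339%), and their intervals overlap those of the snRNA genes and of the other Pol III RNA genes. For the tRNA pseudogenes, at 0, the bars reach the limit of 3 counts, 3.57%. The exact upper end, not drawn, is 4.30%, inside the sc8558 interval of the tRNA genes.

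The 84 pseudogenes, up to 274 bp long, with tRNA-type symbols had no peak of either antibody, which allows a share of up to 3.57% for a count of 0. MicroRNA genes, whose short products silence messenger RNAs, were overlapped in 0.209% and 0.261% of 1913 cases and small nucleolar RNA (snoRNA) genes, which guide RNA modification, in 0.587% and 0.251% of 1193. Small nuclear RNA (snRNA) genes, a class that in the table includes spliceosomal RNAs, RN7SK and the SNAR genes, were overlapped in 10.1% (5.74 to 16.1) and 12.8% (7.86 to 19.2) of 149. Their intervals overlapped those of the tRNA genes, and no test between the classes was run.

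The excess over other short genes was steepest at the gene itself. Within 1 kb of a tRNA gene lay a peak in 12.6% of cases with ab21061 and 11.2% with sc8558, against 1.10% and 0.953% for other short genes, or 11.4-fold and 11.7-fold more. Within 10 kb the shares were 24.9% and 23.1% against 6.35% and 5.95%, or 3.92-fold and 3.88-fold more. Within 100 kb they were 72.3% and 63.4% against 39.9% and 38.7%, or 1.81-fold and 1.64-fold more. The ratio fell with distance, and at each of these distances the share was higher for tRNA genes.

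**Figure D2:**
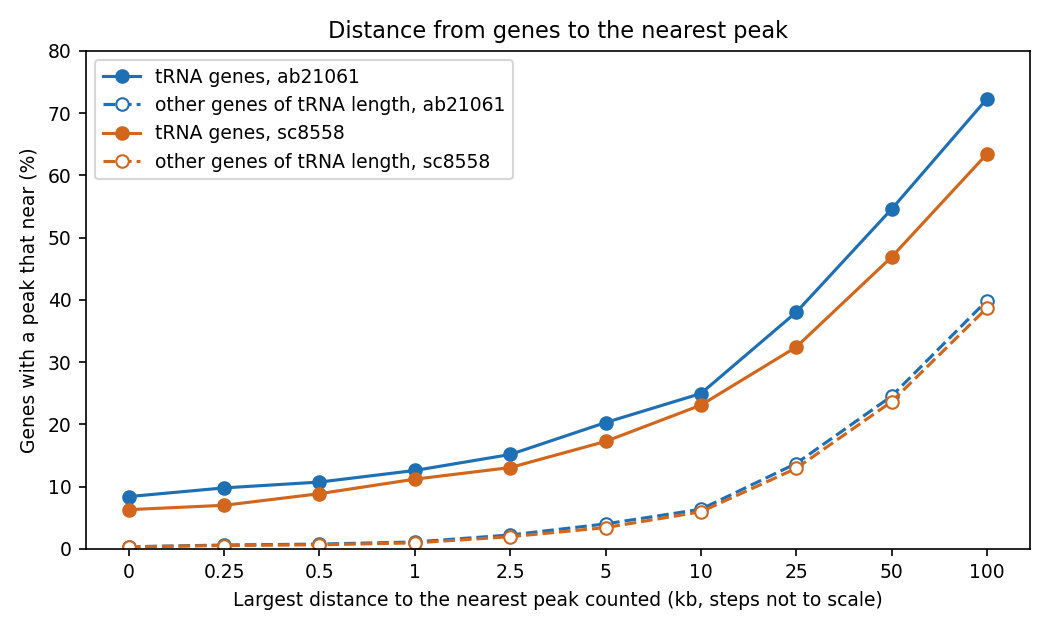
Share of genes (y axis, percent) with a peak no farther than the distance on the x axis (kb, steps not to scale), for tRNA genes (filled points) and the 4721 other genes of at most 108 bp (open points). At 0 kb tRNA genes stand at 8.39% and 6.29% against 0.318% and 0.339%. At 100 kb they stand at 72.3% and 63.4% against 39.9% and 38.7%.

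Fewer peaks than genes lay behind these counts. The 36 genes of ab21061 lay under 26 distinct peaks and the 27 genes of sc8558 under 23. With ab21061, 21 peaks covered 1 tRNA gene, 1 covered 2, 3 covered 3 and 1 covered 4. With sc8558, 21 covered 1 gene and 2 covered 3. These peaks were 0.338% and 0.304% of their lists.

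Scores, the authors' own value for each peak, serve here only to rank peaks within a list. Peaks over tRNA genes had a median score of 119 with ab21061, against 82.4 for the whole list, and 53.8% of them (33.4 to 73.4) scored 100 or more against 37.7%. With sc8558 the median was 86.0 against 81.7, and 39.1% (19.7 to 61.5) scored 100 or more against 37.4%. Both intervals included the share of the whole list. Median widths were 1193 bp against 776 bp with ab21061 and 906 bp against 745.5 bp with sc8558. A wider peak meets a short gene more easily, so greater widths are partly built into the overlap rule. In each list the scores of tRNA peaks spread widely, from 50.58 to 1146.84 with ab21061 and from 51.66 to 701.25 with sc8558. The best 5% of the list held 4 of the 26 ab21061 peaks and 3 of the 23 sc8558 peaks.

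**Figure D3:**
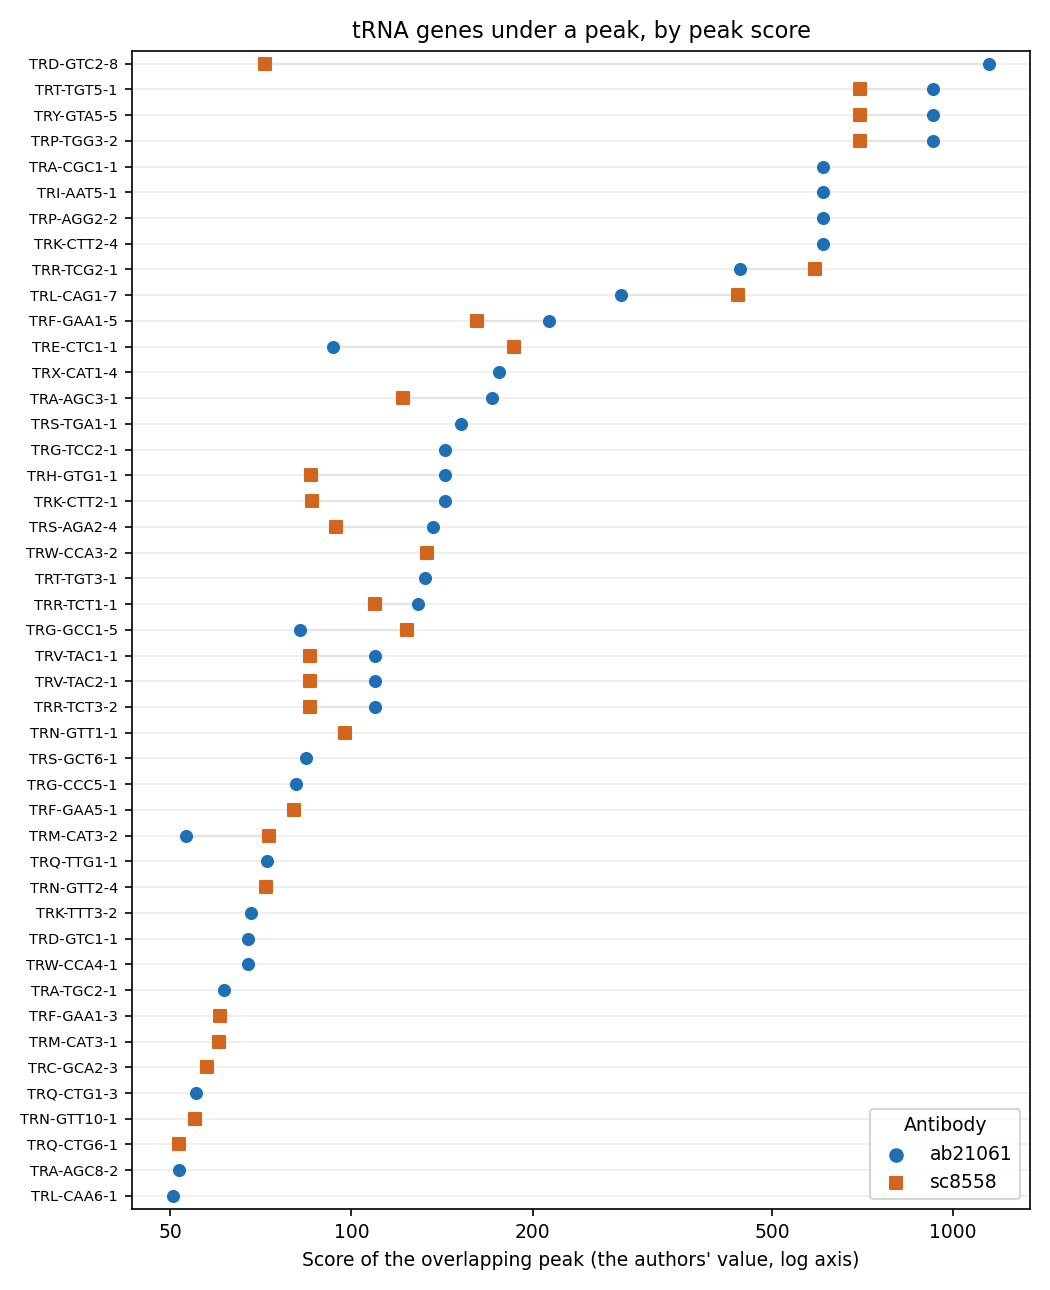
Score of the peak over each of the 45 overlapped tRNA genes (x axis, log scale, the authors' value), with circles for ab21061, squares for sc8558 and a grey line joining the 18 genes marked by both. Genes under 1 peak share its score, and 27 genes carry a symbol of a single antibody.

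Not every tRNA gene marked by 1 antibody was marked by the other. Of the ab21061 genes 50% were also overlapped with sc8558, and of the sc8558 genes 66.7% were also overlapped with ab21061. Over all genes of the table both antibodies marked 2807, of 3742 with ab21061 and 3761 with sc8558, but those genes are mostly longer. Of other genes of at most 108 bp both marked 8, of 15 with ab21061 and 16 with sc8558. At the level of peaks, 16 of 26 ab21061 peaks (61.5%, 40.6 to 79.8) were overlapped by an sc8558 peak, and 14 of 23 sc8558 peaks (60.9%, 38.5 to 80.3) by an ab21061 peak. The whole lists gave 63.7% and 65.0%, inside both intervals, and shares near the background are no result about tRNA peaks. Among tRNA peaks scoring 100 or more, 12 of 14 (57.2 to 98.2%) and 8 of 9 (51.8 to 99.7%) were overlapped, against 91.6% and 93.5% in the lists. Below 100 it was 4 of 12 (9.92 to 65.1%) and 6 of 14 (17.7 to 71.1%), against 46.8% and 48.0%. The intervals of higher- and lower-scoring tRNA peaks overlapped in both lists, and the difference was not tested.

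Only on chromosome 14 did the peaks lying over a tRNA gene rank in the top 100 of both lists. This region covered TRT-TGT5-1 (threonine), TRY-GTA5-5 (tyrosine) and TRP-TGG3-2 (proline) and reached over an end of ANG. ANG encodes angiogenin, a secreted ribonuclease known to cut tRNAs in their anticodon loop. The ab21061 peak, from 20681351 to 20684439, scored 924.35 and ranked 55 of 7687. The sc8558 peak, from 20681204 to 20684335, scored 701.25 and ranked 96 of 7562. Both peaks were over 3 kb wide, and all 3 genes lay wholly inside them. An end of RNASE4, a related ribonuclease gene, lay within 1 kb of both. In the same 14-gene cluster TRT-TGT3-1 met the edge of an ab21061 peak scoring 132.35, with 16 bp of overlap, and its nearest sc8558 peak was 56776 bp away.

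On chromosome 12, TRD-GTC2-8 (aspartate), inside LTA4H, lay under the highest-scoring ab21061 peak of all those over tRNA genes. LTA4H encodes the hydrolase that makes leukotriene B4, an attractant of neutrophils. The ab21061 peak scored 1146.84 and ranked 29, while the sc8558 peak over the gene scored 71.87. A second sc8558 peak scoring 1176.02 lay 680 bp beyond the gene, inside the span of the ab21061 peak. The high score of this gene with ab21061 therefore came from a peak that in the other list was 2 separate peaks, of which the lower one held the tRNA gene.

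Chromosome 6 carries the largest group of tRNA genes, 154 of the 429, of which 144 lay between 26 and 29 Mb, the stretch that also holds the main histone gene clusters. Of these, 13 were overlapped with ab21061 by 10 peaks and 9 with sc8558 by 9 peaks. TRR-TCG2-1 (arginine) lay under peaks scoring 442.9 and 589.34, the latter ranked 143 in its list. These 2 peaks also covered H3C9P, a histone pseudogene, and were the only tRNA peaks over a gene with a histone symbol. TRA-AGC3-1 (alanine), inside SCAND3, had scores of 171.4 and 121.84, and TRS-AGA2-4 (serine) of 136.87 and 94.24.

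TRL-CAG1-7 (leucine) lay near the edge of peaks scoring 280.48 and 438.45 on chromosome 6, which also covered the start of HCG11, a long noncoding RNA gene. The window around that start was the only one of 11 windows touching a tRNA peak that held the longer form of the known GFI1 motif, spelled AAATC, any 3 bases, then GC. The search covered both strands. The window is shown for that match, in capitals, on the plus strand of GRCh38.p14, chr6:26521456-26521755, and it begins beyond the tRNA gene, which ends at 26521290.
HCG11: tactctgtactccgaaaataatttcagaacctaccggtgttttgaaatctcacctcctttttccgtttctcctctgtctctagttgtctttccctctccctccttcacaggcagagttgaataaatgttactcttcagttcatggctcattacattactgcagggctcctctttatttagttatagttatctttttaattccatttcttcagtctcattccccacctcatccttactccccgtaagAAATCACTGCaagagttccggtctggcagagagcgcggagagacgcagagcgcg

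Of all 35116 windows of the same length 2.98% held this longer form on either strand, and 69.0% held the core AATC, which lies inside the longer form. Of the 11 windows touching a tRNA peak 9 held the core. Several of these windows overlap each other, and a match describes the letters only. The B box letters were found exactly in 5 of the 14 windows that hold a whole tRNA gene and with 1 mismatch in 11, against 0.0826% and 1.06% of all windows. The A box was found in 12 of the 14 and in 21.7% of all windows.

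A group of 4 genes on chromosome 6 was covered by 1 antibody only. TRA-CGC1-1 (alanine), TRI-AAT5-1 (isoleucine), TRP-AGG2-2 (proline) and TRK-CTT2-4 (lysine) lay under 1 ab21061 peak of 3037 bp from 26553564 to 26556600, with a score of 607.38 and rank 143. The sc8558 list had 2 short peaks inside that span, scoring 55.97 and 56.44, and neither touched a tRNA gene. The 4 genes lay 996, 375, 157 and 490 bp from the nearest of them. HMGN4, a gene for a nucleosome-binding protein, was the nearest coding gene, with its closer end 6570 bp from TRA-CGC1-1.

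On chromosome 1 all 4 genes of a compact cluster were overlapped. TRE-CTC1-1 (glutamate) had scores of 93.15 and 186.46. TRG-TCC2-1 (glycine), TRH-GTG1-1 (histidine) and TRK-CTT2-1 (lysine) lay under 1 ab21061 peak of 3032 bp scoring 142.81. The sc8558 list split the same span into peaks over TRH-GTG1-1 (85.78) and TRK-CTT2-1 (86.01), and TRG-TCC2-1 lay 381 bp from the nearer. Elsewhere on this chromosome TRR-TCT1-1 (arginine), inside BCAR3, had scores of 128.89 and 109.51. A cluster of 32 genes, lying among genes for Fc receptors of phagocytes such as FCGR2A, had 1 gene under a peak of each antibody. TRL-CAA6-1 (leucine) was overlapped with ab21061 (50.58), 11167 bp from an end of FCGR3B. TRN-GTT1-1 (asparagine) was overlapped with sc8558 (97.63), 1445 bp from an end of FCGR3A.

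On chromosome 11, TRV-TAC1-1, TRV-TAC2-1 (both valine) and TRR-TCT3-2 (arginine) lay wholly under 1 peak of each list, scoring 109.35 and 85.27. The next gene of the cluster, TRL-TAA3-1, lay 173 and 359 bp outside. TRF-GAA1-3 (phenylalanine), in the same 8-gene cluster, had an sc8558 peak scoring 60.4. The single tRNA gene of chromosome 21, TRG-GCC1-5 (glycine), stands 58184 bp from any coding gene end and had scores of 82.19 and 123.71.

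**Figure D4:**
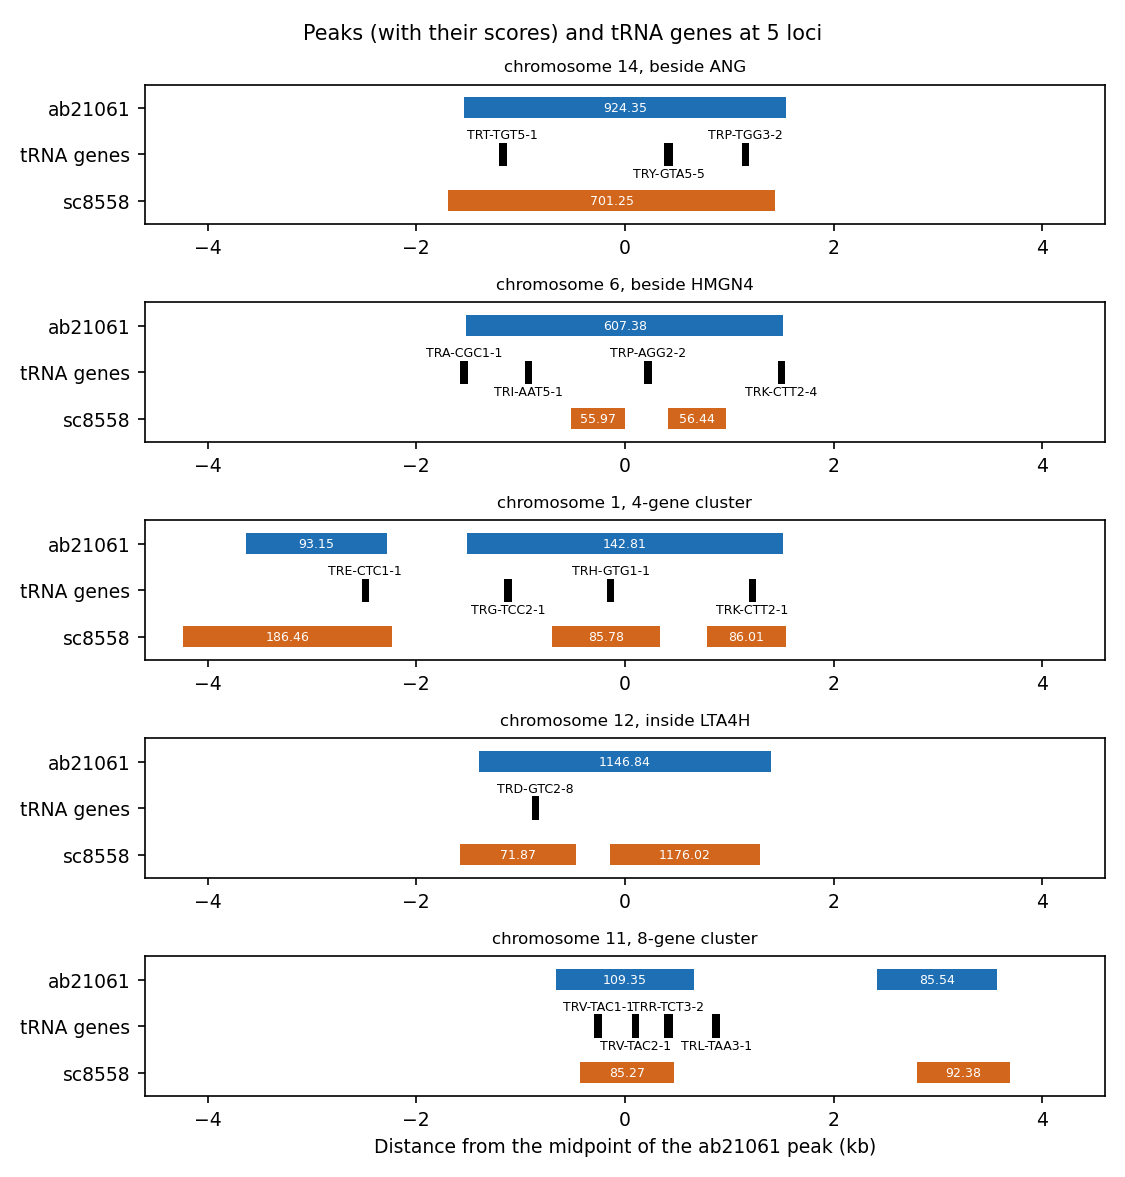
Peaks of ab21061 (upper bars) and sc8558 (lower bars), with their scores, and tRNA genes (black) at 5 loci, against the distance in kb from the midpoint of the ab21061 peak over the genes. At the ANG locus both lists have 1 wide peak, whereas beside HMGN4, in the cluster on chromosome 1 and in LTA4H a single ab21061 peak faces 2 sc8558 peaks.

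A gene marked by 1 antibody could lie close to a peak of the other. Of the 18 genes overlapped only with ab21061, 9 had an sc8558 peak within 1 kb, and for 7 the ab21061 peak itself was overlapped by an sc8558 peak. Among them TRS-TGA1-1 (serine) lay under a peak scoring 152 with an sc8558 peak of 102.71 at 281 bp. TRX-CAT1-4 (initiator methionine) lay under an ab21061 peak of 175.63, and its neighbour TRW-CCA3-2 (tryptophan) under an sc8558 peak of 133.6, with neither peak overlapped by the other list. TRS-GCT6-1 (83.95) and TRG-CCC5-1 (80.77) met the edges of their peaks with 22 and 15 bp. TRK-TTT3-2 (68.06) and the pair TRD-GTC1-1 and TRW-CCA4-1, under 1 peak of 67.35, were also marked by ab21061 alone.

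Of the 9 genes overlapped only with sc8558, 2 had an ab21061 peak within 1 kb and 1 scored 100 or more. Besides those named above they were TRF-GAA5-1 (80.39), TRN-GTT2-4 (72.13), TRM-CAT3-1 (60.22), TRC-GCA2-3 (57.56), TRN-GTT10-1 (55.0) and TRQ-CTG6-1 (51.66). The lowest ab21061 scores were those of TRA-TGC2-1 (61.48), TRQ-CTG1-3 (55.15), TRM-CAT3-2 (53.14), TRA-AGC8-2 (51.61) and TRL-CAA6-1. Of these 5, TRM-CAT3-2 also had an sc8558 peak, scoring 72.98. Of the 18 genes marked by both, 15 scored 100 or more with ab21061 and 10 with sc8558, and genes under 1 peak share its score. In the whole lists, 2657 of the 4896 ab21061 peaks overlapped by the other antibody scored 100 or more, and 2648 of 4919 with sc8558.

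The place of the gene within its peak varied. With ab21061, 30 of 36 were wholly inside and the median distance from the gene's midpoint to the peak's was 402 bp. With sc8558 all 27 were wholly inside and the median distance was 197 bp. Within 250 bp of the peak's midpoint lay 13 of 36 and 15 of 27 midpoints. In the inner 50% of the peak lay 15 of 36 and 15 of 27 genes. Genes placed anywhere in their peaks would lie there in about 50% of cases, so these counts show no centring of peaks on tRNA genes. The smallest overlap counted was 11 bp, at TRA-CGC1-1. Just outside the rule were TRY-GTA5-2 at 15 bp and TRN-GTT2-3 at 52 bp from ab21061 peaks (51.61 and 102.29) and TRF-GAA6-1 at 33 bp from an sc8558 peak (80.39). In all, 22 genes that no peak touched had one within 1 kb.

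Chromosome 6 held 35.9% of all tRNA genes and 17 of the 45 overlapped ones (37.8%), and chromosome 1 held 19.8% and 10 (22.2%). The other 18 lay on 8 chromosomes. On 12 chromosomes none of the 103 tRNA genes was overlapped, a count that follows from how these chromosomes were picked. They include chromosome 16 with 26 genes, chromosome 7 with 22 and chromosome 5 with 18. On chromosome 17, 2 of 33 were, TRQ-TTG1-1 with ab21061 (72.33) and TRC-GCA2-3 with sc8558.

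Joined into clusters wherever the gap was at most 100 kb, the 429 genes formed 124 clusters, 79 of them of a single gene. An overlapped gene lay in 18 clusters with ab21061 (14.5%), 15 with sc8558 (12.1%), 21 with either and 11 with a gene marked by both. Of the single-gene clusters 7 were overlapped, and of the 45 larger ones 14. A cluster with more genes, up to 43 here, has more chances of an overlapped gene. A higher share among larger clusters is therefore partly built into the count. The contrast was not tested and is no result about clustering.

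All amino acids but selenocysteine, with 2 genes, were represented. The overlapped genes covered 19 of 22 classes with each antibody, counting the initiator methionine apart, and 21 with either. No class exceeded 4 genes. Alanine had 4 of 37 genes with ab21061 and 1 with sc8558, arginine 3 of 26 with each, and phenylalanine 1 and 3 of 11. Asparagine had 0 and 3 of 21, and cysteine, among the larger classes with 29 genes, 0 and 1. No test between classes was run.

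**Figure D5:**
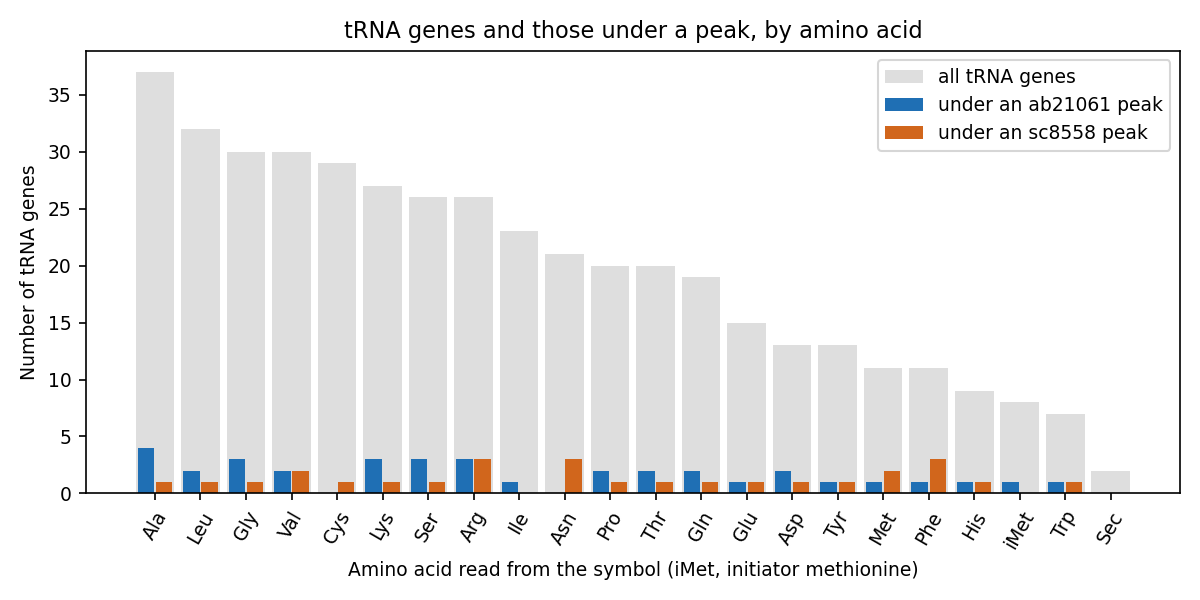
Number of tRNA genes per amino acid (grey bars) and the number under a peak of ab21061 (blue) or sc8558 (orange). No class has more than 4 genes under peaks of an antibody, and only selenocysteine, with 2 genes, has none with either.

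Copies of 1 mature sequence could differ in being overlapped. Of 57 sequence names carried by 2 or more genes, 34 had no copy under a peak of either antibody, 22 had some and 1 had all. That name was TRM-CAT3 with 2 copies, of which 1 was overlapped with ab21061 and 2 with sc8558. Of the 57 names 20 were carried by 5 or more genes, 129 genes in all. Among these genes 19 (14.7%) were overlapped with either antibody against 10.5% of all tRNA genes. With the cut at 2 or more copies the share was 11.4% of 229 genes, against 9.5% of the 200 genes with 1 copy. These differences were not tested. For 17 of the 20 at least 1 copy was under a peak, and for 15 it was exactly 1. A name carried by more genes has more chances of an overlapped copy. TRD-GTC2 had 1 of 11 copies overlapped, TRH-GTG1 1 of 9 and TRX-CAT1 1 of 8. TRF-GAA1 had 2 of 6 and TRK-CTT2 2 of 5. How reads that fit several copies were placed is not given in the sources used here, and its part in these counts was not tested.

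Other genes that Pol III transcribes were taken from a list of 37. Peaks covered 3 with ab21061 (8.11%, 1.70 to 21.9) and 4 with sc8558 (10.8%, 3.03 to 25.4). The shares over all genes, 6.35% and 6.38%, and those of the tRNA genes lay inside these intervals, while those of other genes of at most 108 bp lay below. RN7SK, whose RNA restrains the elongation factor P-TEFb, had scores of 375.96 and 332.33. RN7SL1 and RN7SL2, the RNA genes of the signal recognition particle, had 161.48 and 146.02, and 256.12 and 254.83. RNY5 had an sc8558 peak of 85.9. None of the 17 genes of 5S ribosomal RNA was overlapped, which allows up to 17.6%, nor any of 5 U6 or 4 vault RNA genes, where a count of 0 allows up to 60% and 75%. RNU6-7 and RNU6-8 stood 446 and 83 bp from an ab21061 peak of 73.73.

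Protein genes of the tRNA machinery were counted next. Of 109 genes in 4 lists, 9 had a peak over the gene or within 1 kb with each antibody (8.26%, 3.85 to 15.1) and 8 with both. Over all protein-coding genes the shares were 13.5% with ab21061, 13.7% with sc8558 and 10.5% with both, and the 13.5% and 13.7% lay inside the interval of the 109 genes. A share near the background is no result about the list. Among 18 Pol III subunits POLR3G, a subunit of undifferentiated cells, was the only one, with scores of 70.43 and 69.27. Among 18 genes of TFIIIB, TFIIIC and related factors, TBP, the TATA-binding protein shared by all 3 polymerases, had 348.82 and 255.32 across its end. SNAPC5, of the complex that starts snRNA genes, had 50.42 and 80.95.

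Among 23 synthetase genes SARS1, which charges serine tRNAs, had 359.36 and 418.66, within 0.468 kb of an end. Of 50 processing and modification genes 4 had a peak with ab21061 and 5 with sc8558. QTRT2, a subunit of the enzyme that puts queuine into the anticodon, had 1143.76 and 1054.16 across its end and ranked 30 and 34. ANG was counted here with the peaks described above. TRMT1, a tRNA methyltransferase, had 64.91 and 69.71. RPP30, of ribonuclease P, had an sc8558 peak of 59.33 at 265 bp.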

How the data were processed

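The authors deposited 1 peak list per library, with no header, holding chromosome, start, end, peak name and a score for each peak. The score is the authors' own peak caller value, from 50.01 in both lists and reaching 3100. Per the submitters' processing notes, Bowtie2 2.2.9, MACS 1.4.2 and hg38 were used. Neither the options nor the control library are given in the sources used here, and depth is unknown.

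The members and lists were chosen with earlier results of these data known. Of 443 tRNA rows placed on chromosomes 1 to 22 and X, 14 (and 718 rows of all types) followed the end of their chromosome out of coordinate order, so their positions were taken not to be on that chromosome, and they were left out. The 22 mitochondrial tRNA genes are not members. Overlap was counted from 1 bp. The named genes are, for each antibody, the 15 with the highest and the 5 with the lowest scores, up to 10 of a single antibody, and list members with a peak within 1 kb, except some that are not reported here. Others named (TRV-TAC1-1, TRV-TAC2-1, TRR-TCT3-2, TRL-TAA3-1, TRQ-TTG1-1, TRK-TTT3-2, TRD-GTC1-1, TRW-CCA4-1, TRL-AAG2-2, TRP-TGG3-5 and genes just outside a peak) were chosen after their values were seen. Exact Clopper-Pearson 95% intervals were used, with 3 counts as the limit for 0. The overlap count found all simulated peaks planted over whole tRNA genes, which checks the code only. Partial overlaps were not planted. Motifs were sought on both strands of the gene-start windows. Intervals came from scipy 1.17.1, tables from pandas 2.3.3 and numpy 2.4.6 and plots from matplotlib 3.10.9, under Python 3.11.15. Alternatives were other score, overlap, member and window rules.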

Additional observations from a re-analysis of the deposited data

How the results depend on the processing

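The shares of tRNA genes for ab21061 and sc8558 came to 5.36 and 2.56% among peaks scoring at least 100 (both antibodies 1.86%), 12.6 and 11.2% for a peak within 1 kb (both 8.16%) and 3.26 and 3.73% with the peak's midpoint within 250 bp of the gene (both 1.63%). Counting distinct peaks gave 14 and 9 with scores from 100 up, 13 and 15 by midpoint and 16 and 14 without chromosome 6, and each antibody had 35 within 1 kb. The shares of other short genes were 0.127% with either antibody from a score of 100 up, and 1.10 and 0.953% within 1 kb, below the tRNA genes in both settings. The sc8558 share of snRNA genes among peaks scoring at least 100 was 5.37%, and the median score of sc8558 tRNA peaks was 161.57. Machinery genes with a peak were then 4 and 5. Windows with a B box rose to 11 with 1 mismatch. These shifts follow from fewer or more peaks, genes or letters by construction. Leaving out odd tRNA symbols removed no gene. With the rows out of coordinate order, chosen after seeing the data, the shares were 8.13 and 6.09%. No paired analysis was possible because each antibody had 1 library, so none could be left out either. Unknown depth limits any reading of genes marked by a single antibody.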

Other observations

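The surroundings of overlapped and other tRNA genes were set side by side, with no test, after the results were seen. Of the 45 genes under a peak of either antibody, 44.4% (29.6 to 60) had another tRNA gene within 1 kb, against 28.9% (24.4 to 33.7) of the other 384. An end of a protein-coding gene lay within 1 kb of 15.6% (6.49 to 29.5) and 12.5% (9.36 to 16.2), and 8.89% (2.48 to 21.2) and 10.2% (7.32 to 13.6) lay inside a coding gene. The 3 pairs of intervals overlapped. These intervals treat genes as separate, although some lay under 1 peak. With ab21061, 1 peak covered 2 tRNA genes, 3 covered 3 and 1 covered 4, and with sc8558, 2 covered 3. A peak over neighbouring genes marks them all, so the share with another tRNA gene nearby is partly built into the overlap rule. The comparison of that share therefore decides nothing about tRNA neighbours.

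In tRNA symbols a lower sequence number generally stands for a sequence that scores better as a tRNA. Of 116 genes with the number 1, 11.2% were overlapped with ab21061 and 7.76% with sc8558. The shares were 8.65% and 6.73% of 104 genes with the number 2 and 6.97% and 5.47% of 201 with higher numbers. The order was the same with both antibodies, but the libraries mark partly the same genes and no test was run. The shares rested on 13, 9 and 14 genes with ab21061 and on 9, 7 and 11 with sc8558, some of them under 1 peak. All lay inside the intervals of all tRNA genes, 5.95 to 11.4% and 4.19 to 9.03%. Shares this near the background are no result about the sequence number.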
